A study of Mus musculus with 22 samples.

Results

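Glycolysis splits glucose into pyruvate in the cytosol, and the citric acid cycle oxidises the carbon of pyruvate in the mitochondrial matrix. A list of 42 genes of these routes was followed in the nucleus accumbens, a ventral striatal region of the reward circuit. The members were the listed genes that the count table holds, and all 42 were found there among 24061 genes. Of these, 41 passed the filter on low counts that left 14564 genes for testing. The exception was Eno1, an enolase gene, with between 0 and 4 reads per library. Eno1 has near-identical copies in the genome and reads aligning to several places were not assigned to genes, so its level is uncertain and it was not tested.

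RNA came from male C57BL/6J mice aged 7 to 9 weeks. Water mice drank plain water and kept a normal gut microbiome, and antibiotic mice received antibiotics that are not absorbed from the gut, which deplete it. Within each kind, mice were given saline or morphine at 20 mg/kg per day for 7 days. There were 6 libraries for saline and 5 for morphine among water mice, and likewise 6 for saline and 5 for morphine among antibiotic mice. Libraries are called by group and by the number in their titles. Counts assigned to genes ran from 9357299 to 15330947 per library. The labels do not say how many animals a library holds, so p-values measure the spread between these libraries, which may be partly technical. Lists of astrocyte, oligodendrocyte, microglial, endothelial, striatal and general neuronal markers had no gene at 0 in all libraries, while 6 of 7 erythrocyte genes were at 0 in all of them. Those 6 were the globin genes. The source of their zeros was not tested, and the zeros do not show that blood was absent. In bulk tissue, fewer cells of a type and less RNA per cell cannot be told apart.

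In brain, glucose is the main fuel. Neurons and glia share the route, and lactate made by lactate dehydrogenase can pass between cells. Pyruvate enters the mitochondrion through a carrier and becomes acetyl-CoA in the pyruvate dehydrogenase complex, which pyruvate dehydrogenase kinases switch off by phosphorylation. The cycle then passes electrons to the respiratory chain. Many glycolytic genes are classical targets of hypoxia-inducible factors, which recognise a short core in DNA.

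The promoters below are those of 3 members on which the comparisons turn: Ldha and Pfkl, which were lowest in antibiotic mice given morphine, and Suclg1, which was lower under morphine with either drink. Each run is the 250 bases before the start of transcription, 5′ to 3′ on the strand of the gene, from the RefSeq table of build GRCm38.p6. Capitals mark the letters ACGTG or GCGTG, the 2 forms of the hypoxia-response core, on either strand, where they read as CACGT or CACGC. The Ldha window lies at chr7:46845554-46845803 on the + strand, the Pfkl window at chr10:78009808-78010057 on the - strand and the Suclg1 window at chr6:73248255-73248504 on the + strand.
Ldha: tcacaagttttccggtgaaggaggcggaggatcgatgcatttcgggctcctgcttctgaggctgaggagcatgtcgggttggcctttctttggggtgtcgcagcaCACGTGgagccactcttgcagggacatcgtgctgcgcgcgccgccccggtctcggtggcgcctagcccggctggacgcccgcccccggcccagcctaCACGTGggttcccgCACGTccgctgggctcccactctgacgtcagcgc
Pfkl: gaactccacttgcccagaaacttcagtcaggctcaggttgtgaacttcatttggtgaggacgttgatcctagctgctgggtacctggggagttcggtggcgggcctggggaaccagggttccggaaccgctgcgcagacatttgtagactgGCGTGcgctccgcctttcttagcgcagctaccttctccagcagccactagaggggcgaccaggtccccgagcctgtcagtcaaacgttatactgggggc
Suclg1: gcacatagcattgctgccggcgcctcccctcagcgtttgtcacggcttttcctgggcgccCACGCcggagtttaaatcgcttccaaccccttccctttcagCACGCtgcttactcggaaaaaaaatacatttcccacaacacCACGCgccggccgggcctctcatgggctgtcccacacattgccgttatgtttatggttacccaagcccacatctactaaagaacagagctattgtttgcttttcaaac
Ldha has 2 windows in the table, and the upstream one is printed. It held 5 overlapping matches to ACGTG and none to GCGTG, since a palindromic CACGTG counts on both strands. The downstream window held 1 GCGTG and no ACGTG. Pfkl held 1 GCGTG and Suclg1 held 3, with no ACGTG in either. Promoters were found for 41 of the 42 members, all but Idh3a, and 11 members had more than 1 window. ACGTG on either strand stood in a window of 15 members (36.6%), against 24.7% of the 10910 tested genes found in the table and 16.6% of all 32851 windows. Either form stood in a window of 29 members (70.7%), against 60.4% of those tested genes and 38.6% of all windows. A match describes the letters only and is neither a site of binding nor a cause.

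Members differed widely in level. They are given as CPM (a library's gene counts scaled to a common library size with TMM factors) per kilobase of the longest annotated protein-coding transcript. In water mice given saline, the aldolase Aldoa stood highest at 1040 ± 30.4 (SD, n = 6), and the hexokinase Hk2 lowest at 0.806 ± 0.107. After Aldoa came the glyceraldehyde-phosphate dehydrogenase Gapdh at 891 ± 13.6, the lactate dehydrogenase Ldhb at 514 ± 23.1 and the neuronal enolase Eno2 at 477 ± 9.25. Each gap among these 4 was larger than the SD of both neighbours. The next pair, the cytosolic malate dehydrogenase Mdh1 (414 ± 16.5) and the triose-phosphate isomerase Tpi1 (404 ± 20.6), did not differ beyond its spread.

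**Figure D1:**
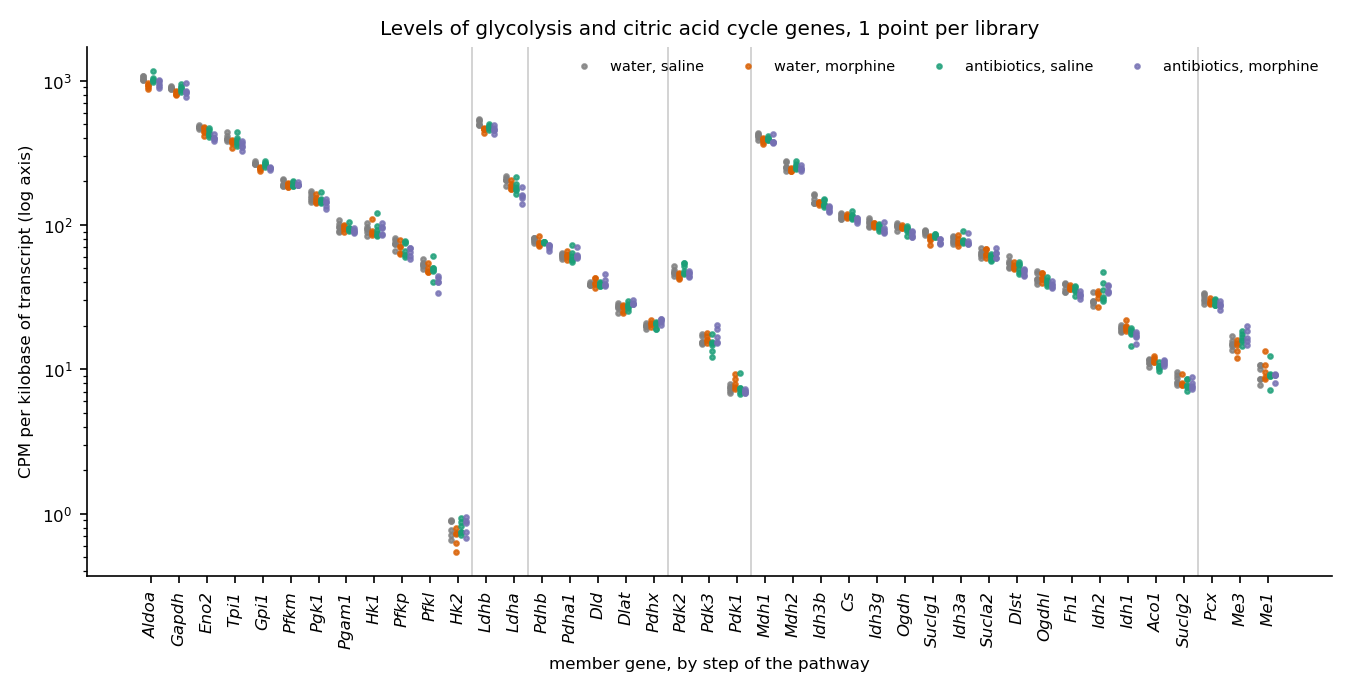
Levels of the 41 tested members in CPM per kilobase of transcript on a log axis, 1 point per library, coloured by group and ordered within each step (glycolysis, lactate dehydrogenase, pyruvate dehydrogenase complex, its kinases, citric acid cycle, and anaplerosis with malic enzymes, separated by grey lines). The differences between genes, from 0.806 for Hk2 to 1040 for Aldoa in water mice given saline, are far wider than those between groups.

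Within steps, 1 isozyme usually led. Among hexokinases, which phosphorylate glucose, Hk1 stood at 93.1 ± 6.61 CPM per kilobase and Hk2 at 0.806 ± 0.107. Among phosphofructokinases, which commit the sugar to glycolysis, the muscle-type Pfkm stood at 194 ± 9.33, the platelet-type Pfkp at 74.9 ± 5.45 and the liver-type Pfkl at 53.6 ± 2.83. Ldhb exceeded Ldha, at 514 ± 23.1 against 205 ± 10.6. Of the pyruvate dehydrogenase kinases, Pdk2 led at 47.6 ± 2.63, followed by Pdk3 at 16 ± 1.01 and Pdk1 at 7.36 ± 0.36. In the cycle, the oxoglutarate dehydrogenase Ogdh stood at 98.2 ± 4.18 and its relative Ogdhl at 43.1 ± 3.39. The isocitrate dehydrogenases that use NADP were lower, with mitochondrial Idh2 at 29.8 ± 2.37 and cytosolic Idh1 at 19.1 ± 0.86.

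Libraries of a group agreed closely for these genes. The median within-group SD of log2 CPM was 0.077 over the 41 members and 0.149 over all 14564 genes. The sets were not matched for level, so this does not set the members apart from other genes of like abundance. The widest was that of Me1, the cytosolic malic enzyme, at 0.209, and the narrowest that of Gpi1, the glucose-phosphate isomerase, at 0.039.

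Morphine in water mice was asked about first. Compared with saline, 4 members fell and none rose (quasi-likelihood F-test of edgeR, p adjusted over all genes by Benjamini-Hochberg, threshold 0.05). The 4 are 9.76% of the members tested, beside 2.67% of all genes called lower, and 3.91% of all genes were called higher. They were the glycolytic genes Gpi1 and Aldoa, the lactate dehydrogenase Ldhb and Suclg1, the alpha subunit of succinyl-CoA ligase. The mean of Gpi1 fell by 8.29% and that of Aldoa by 11.2%, the smallest and largest of the 4 changes in percent. The median log2 change over the 41 members was -0.059, and 31 of them were negative, with a median of -0.00017 over all genes.

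Gpi1 converts glucose 6-phosphate to fructose 6-phosphate. In water mice given morphine, its 5 libraries read 716, 732, 708, 684 and 711 CPM, and in those given saline the lowest, median and highest of 6 were 761, 768 and 806. The groups did not overlap, and the log2 change was -0.12 (SE 0.04, adjusted p = 0.0356 by edgeR).
Aldoa splits fructose bisphosphate into a pair of triose phosphates. It read 1452, 1454, 1500, 1349 and 1401 CPM under morphine, and 1557, 1603 and 1673 as lowest, median and highest under saline. The groups did not overlap, and the log2 change was -0.17 (SE 0.05, adjusted p = 0.0305 by edgeR).
Ldhb, the subunit that favours the step from lactate to pyruvate, read 602, 600, 568, 605 and 616 CPM under morphine. Under saline its lowest, median and highest values were 637, 669 and 710. Again every morphine library lay below every saline library, with a log2 change of -0.16 (SE 0.04, adjusted p = 0.0233 by edgeR).
Suclg1 takes part in the step of the cycle that makes GTP or ATP directly. It read 128, 125, 110, 120 and 122 CPM under morphine, and 129, 137 and 139 as lowest, median and highest under saline. The groups did not overlap, and the log2 change was -0.17 (SE 0.04, adjusted p = 0.014 by edgeR).

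The other 37 members ranged from -0.23 (Hk2, SE 0.13) to 0.14 (Pdk1, SE 0.07), and their adjusted p was above 0.05. All 12 glycolytic members tested had a negative log2 change (median -0.11), of which 2 passed. Of the 16 members listed under the cycle, which include the cytosolic Idh1 and Mdh1, 11 were negative (median -0.023), and 1 passed. The 5 subunits of the pyruvate dehydrogenase complex lay between -0.06 and 0.05, with none past the threshold. Gapdh and Mdh1, both abundant, had log2 changes of -0.12 (SE 0.05, adjusted p = 0.108 by edgeR) and -0.11 (SE 0.04, adjusted p = 0.115 by edgeR).

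A slope of log2 CPM on transcript length moved with morphine. In water mice it ran from -0.078 to -0.011 per doubling of length under saline and from 0.028 to 0.047 under morphine, with no overlap. The slope came from the same log2 CPM and separated these groups, so a fit with it cannot tell the slope from morphine. The members had a median transcript length of 2580 nt, against 3259 nt over all tested genes with a length. With the slope as a covariate, the log2 changes of Gpi1, Aldoa, Ldhb and Suclg1 were -0.07, -0.16, -0.12 and -0.11, and their adjusted p by edgeR ran from 0.723 to 0.836, when no gene of the whole table passed. Gpi1, Aldoa and Ldhb also each lost their call when single libraries were left out. Gpi1 did so for 8 of 11 libraries (adjusted p up to 0.088), Aldoa for 5 (up to 0.0779) and Ldhb for 4 (up to 0.0543). Suclg1 kept its call without any one library.

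In antibiotic mice, morphine and saline libraries are compared with each other, and the water libraries enter only the filter, the scaling and the shared estimate of the spread. Again 4 members fell and none rose, 9.76% of those tested, beside 6.62% of all genes called lower and 6.43% called higher. They were Pfkl, the lactate dehydrogenase Ldha, Idh3b, a subunit of the NAD-dependent isocitrate dehydrogenase, and Suclg1. Suclg1 was thus the member that fell in both morphine comparisons, 1 of 4 in each. The members' median log2 change was -0.064, with 31 of 41 negative, beside a median of -0.0024 over all genes.

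Pfkl had the largest change of the 4. It read 151, 166, 127, 159 and 151 CPM in antibiotic mice given morphine, and 150, 186 and 229 as lowest, median and highest in those given saline. The groups overlapped through saline library 4, the lowest, while saline library 5 was the highest of all 22. Pfkl fell by 19.1%, a log2 change of -0.31 (SE 0.08, adjusted p = 0.0121 by edgeR).
Ldha, the subunit that favours the step from pyruvate to lactate, read 288, 331, 253, 291 and 277 CPM under morphine. Under saline, the lowest, median and highest were 295, 326 and 393, and the same libraries 4 and 5 were the extremes. Morphine library 2, at 331, lay within the saline range, and the log2 change was -0.22 (SE 0.07, adjusted p = 0.0356 by edgeR).
Idh3b read 216, 198, 209, 203 and 217 CPM under morphine, and 217, 225 and 246 as lowest, median and highest under saline. The groups overlapped at their edge, and the log2 change was -0.14 (SE 0.05, adjusted p = 0.0493 by edgeR).
Suclg1 read 114, 113, 122, 113 and 121 CPM under morphine, and 125, 129 and 132 as lowest, median and highest under saline. The groups did not overlap, and the log2 change was -0.14 (SE 0.04, adjusted p = 0.0199 by edgeR).

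Another 37 members lay between -0.13 (Pdk2, SE 0.05) and 0.23 (Pdk3, SE 0.08), with adjusted p above 0.05. In glycolysis 11 of 12 changes were negative (median -0.097), and in the cycle 13 of 16 (median -0.066). The pyruvate dehydrogenase complex leaned the other way, with 4 of its 5 subunits positive, from -0.11 (Pdhb) to 0.10 (Pdhx), and none past the threshold. With DESeq2 in place of edgeR 10 members were lower, and fitting these 11 libraries alone left 1 of the 4, Suclg1. The calls of Pfkl, Ldha and Idh3b thus depend on including the water libraries. Those enter the filter, the scaling and the spread, and which of these mattered was not tested. No share of all genes stands beside the counts of the DESeq2 fit and the fit of 11 libraries, so they do not compare members with other genes.

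The length slope ran from -0.053 to 0.048 in antibiotic mice given saline and from 0.025 to 0.055 in those given morphine, so that 1 saline library, number 6, lay among the morphine libraries. With the slope as a covariate, Pfkl changed by -0.27, Ldha by -0.19, Idh3b by -0.06 and Suclg1 by -0.10, and their adjusted p by edgeR ran from 0.24 to 0.709. Idh3b lost its call when any one of 8 of the 11 libraries was left out, and Ldha for any one of 6 (adjusted p up to 0.119 for both). Suclg1 lost it without saline library 1 or morphine library 1 (up to 0.0544), and Pfkl kept it throughout (up to 0.0476). Saline library 6 and morphine libraries 4 and 5 had the highest shares of reads outside annotated genes, 17.3%, 14% and 13.6%. Without these 3 libraries, Pfkl changed by -0.34 (adjusted p = 0.0413 by edgeR), while Ldha, Idh3b and Suclg1 had adjusted p from 0.0669 to 0.134.

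**Figure D2:**
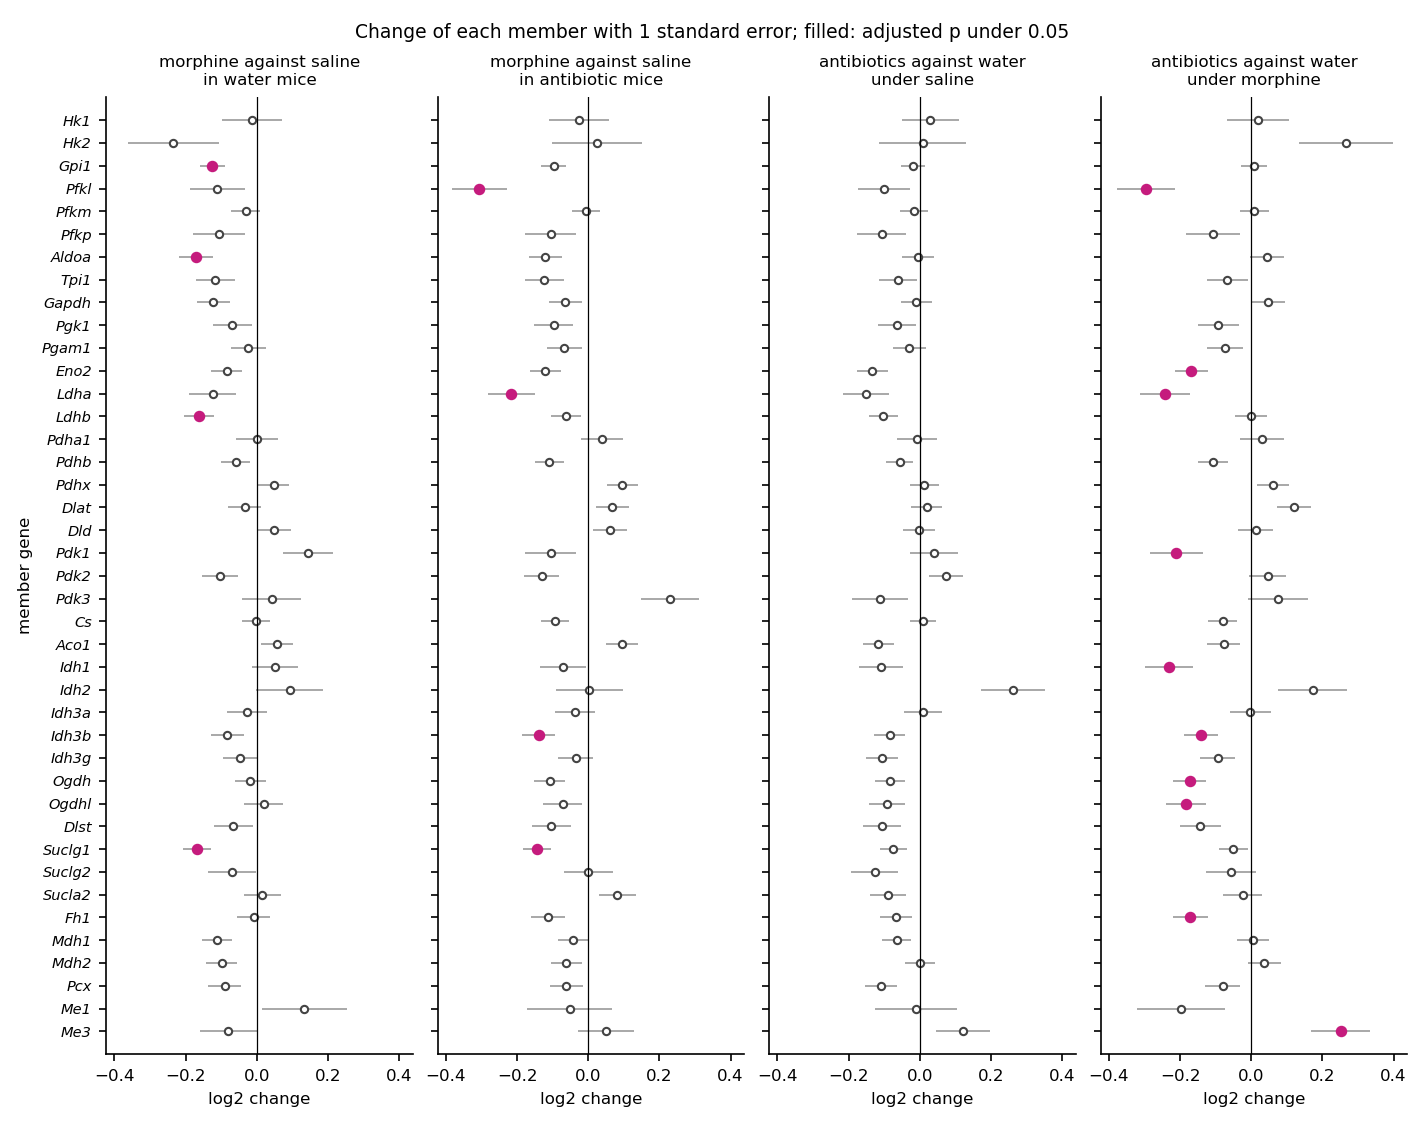
Log2 change of each of the 41 tested members in 4 comparisons, with bars of 1 standard error. Filled points have an adjusted p under 0.05 in edgeR: 4 lower with morphine in water mice, 4 lower with morphine in antibiotic mice, 0 with antibiotics under saline, and 9 lower and 1 higher with antibiotics under morphine.

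Antibiotics without morphine gave no member past the threshold. In edgeR 205 of 14564 genes passed (1.41%), and 0 members. At an unadjusted p under 0.05, 7 members (17.1%) were counted, beside 17.3% of all genes. DESeq2 called 1 member lower, beside 2.88% of all genes called, and limma-voom 0, beside 1.45%. The members' median log2 change was -0.061, with 31 of 41 negative, beside 0.0038 over all genes. This comparison shares a saline group with each morphine comparison, so their medians are not independent. The extremes were Ldha at -0.15 (SE 0.06, adjusted p = 0.22 by edgeR) and Idh2 at 0.26 (SE 0.09, adjusted p = 0.14 by edgeR). Eno2 had the smallest adjusted p, 0.112 by edgeR, at -0.13 (SE 0.04), and was below the water mean in 6 of 6 libraries.

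Among mice given morphine, antibiotics were accompanied by the most calls. Compared with water, 9 members fell, 22% of those tested beside 9.58% of all genes, and 1 rose, 2.44% beside 8.42%. In glycolysis these were Pfkl and Eno2, and at the branch to lactate Ldha. At the gate to the cycle it was Pdk1, in the cycle Idh3b, Ogdh, Ogdhl and Fh1, the fumarase, and beside the cycle the cytosolic Idh1. The member that rose was Me3, a mitochondrial malic enzyme that makes pyruvate from malate. The members' median log2 change was -0.057 with 25 of 41 negative, beside 0.00084 over all genes. This comparison shares the antibiotic libraries given morphine with the one before last, so calls of Pfkl, Ldha and Idh3b in both rest partly on the same 5 libraries.

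Ogdh, the first enzyme of the oxoglutarate dehydrogenase complex, read 340, 375, 352, 339 and 370 CPM in antibiotic mice given morphine. In water mice given morphine it read 393, 415, 402, 394 and 397. The groups did not overlap, and the log2 change was -0.17 (SE 0.05, adjusted p = 0.0105 by edgeR).
Pfkl, at 151, 166, 127, 159 and 151 CPM, stood below the 180, 188, 205, 175 and 176 of water mice given morphine. The groups did not overlap, and the log2 change was -0.30 (SE 0.08, adjusted p = 0.0127 by edgeR).
Eno2, which makes phosphoenolpyruvate in neurons, read 1113, 1185, 1074, 1102 and 1119 CPM, against 1343, 1306, 1147, 1239 and 1249. Water library 4, at 1147, lay below the highest antibiotic library, and the log2 change was -0.17 (SE 0.05, adjusted p = 0.0145 by edgeR).
Ldha read 288, 331, 253, 291 and 277 CPM against 320, 350, 373, 339 and 322. Antibiotic library 2 was the only one inside the water range, and the log2 change was -0.24 (SE 0.07, adjusted p = 0.018 by edgeR).

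The remaining calls were in the cycle, at its gate and beside it. Fh1, which hydrates fumarate to malate, averaged 86.3 ± 3.79 CPM in antibiotic mice and 97.2 ± 2.64 in water mice given morphine (SD, n = 5 in each), and the groups did not overlap. Its log2 change was -0.17 (SE 0.05, adjusted p = 0.0181 by edgeR). Idh1, which makes NADPH in the cytosol, averaged 38.9 ± 2.73 against 45.6 ± 2.94, also without overlap, and its log2 change was -0.23 (SE 0.07, adjusted p = 0.0184 by edgeR). Ogdhl averaged 143 ± 5.81 against 163 ± 10.7 CPM, with overlap (log2 change -0.18, SE 0.06). Idh3b averaged 208 ± 8.14 against 230 ± 5.2 CPM, and Pdk1 36.5 ± 0.85 against 42.2 ± 4.12, neither with overlap. Their log2 changes, -0.14 and -0.21, lay just inside the threshold, with adjusted p of 0.0451 and 0.0496 by edgeR. Me3 averaged 76.5 ± 9.41 against 64.1 ± 7 CPM with overlap, a log2 change of 0.25 (SE 0.08, adjusted p = 0.0366 by edgeR). Me3 lost its call in a fit of these 10 libraries alone (adjusted p = 0.0849 by edgeR). With a score of cortical and septal markers as covariate its log2 change was 0.12 (adjusted p = 0.175 by edgeR).

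The other 31 members lay between -0.20 (Me1, SE 0.12) and 0.27 (Hk2, SE 0.13). In glycolysis 6 of 12 changes were negative. Of the 16 members listed under the cycle 13 were negative (median -0.079), of which 5 passed, the cytosolic Idh1 among them. Aldoa, Gapdh and Gpi1 had log2 changes of 0.04, 0.05 and 0.01, and Ldhb changed by -0.052%. The length slopes of the morphine groups overlapped, and with the slope as a covariate 9 of the 10 calls were kept, all but Pdk1 (adjusted p = 0.0533 by edgeR). Pfkl, Eno2, Ogdh and Fh1 kept their calls without any one library. Ldha lost its call without antibiotic library 3 (adjusted p = 0.0612 by edgeR), and Idh1 without that library or water library 4 (up to 0.0622). Pdk1 and Idh3b each lost theirs when any one of 8 of the 10 libraries was left out, Me3 for any one of 5 and Ogdhl for any one of 4. Leaving out the same 3 libraries with a high share of reads outside genes, 2 of which are in this comparison, kept 6 of the 10 (Pfkl, Idh1, Ogdh, Ogdhl, Fh1 and Me3).

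**Figure D3:**
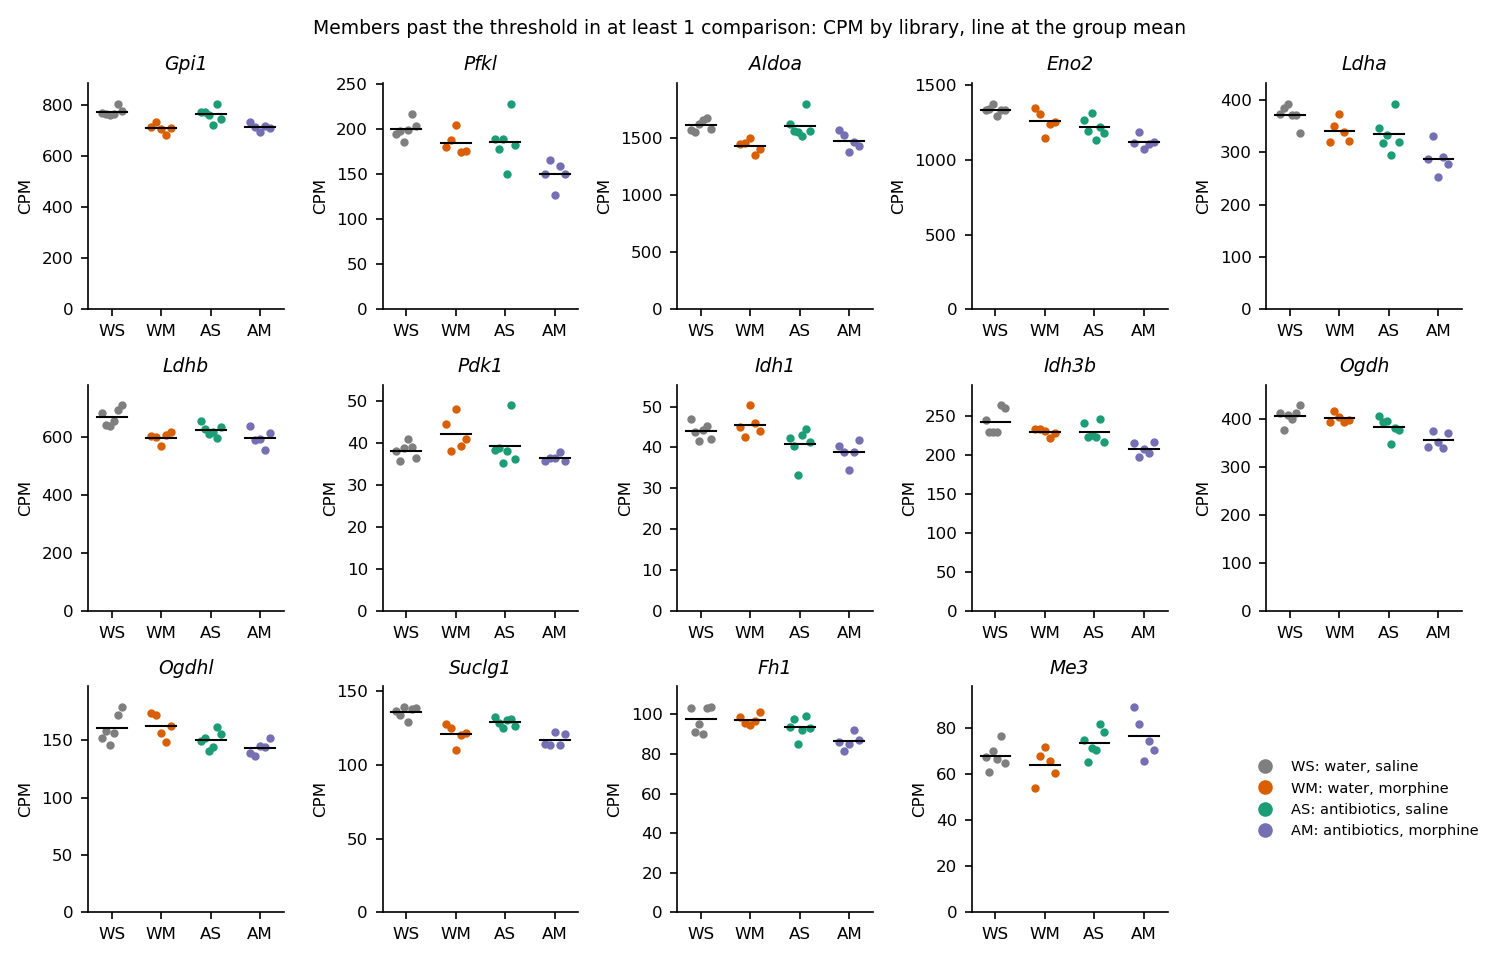
CPM of the 14 members past the threshold in at least 1 comparison, 1 point per library in each of the 4 groups, with the axis from 0 and a line at the group mean. Pfkl, Ldha, Eno2, Ogdh and Fh1 have their lowest group mean in antibiotic mice given morphine, and the points of Suclg1 under morphine lie below those under saline with the same drink.

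Whether antibiotics altered the morphine change was tested as the difference between the changes of antibiotic and water mice. No member passed in edgeR, in which 68 genes did (0.467%), nor in DESeq2 (1.24% of all genes) or limma-voom (0.488%). At an unadjusted p under 0.05 there was 1 member (2.44%), beside 12.3% of all genes. It was Pdk1, at -0.25 (SE 0.10, adjusted p = 0.296 by edgeR), with a morphine change of 0.14 in water mice and -0.11 in antibiotic mice. For Pfkl the difference was -0.19 (SE 0.11), for Ldhb 0.10 (SE 0.06) and for Suclg1 0.02 (SE 0.06). A member called with one drink and not with the other is therefore not shown to differ between drinks.

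The balance between isozymes of a step was compared as the log2 ratio of their CPM in each library, for 11 pairs in 4 comparisons. None of the 44 tests passed after adjustment (exact permutation tests, two-sided, Benjamini-Hochberg over the 44). The lowest adjusted p was 0.0762, and it belonged to 5 tests. With 5 libraries against 5 no exact permutation p can be below 0.00794, and 4 pairs reached that value for antibiotics against water under morphine. There Pfkl to Pfkm stood at -1.87 ± 0.15 against -1.56 ± 0.11 (SD, n = 5 in each), a difference of -0.31. Idh1 to Idh2 differed by -0.40, Pdk1 to Pdk2 by -0.25 and Me1 to Me3 by -0.43, and in these 4 pairs no antibiotic library overlapped a water library. Under saline, Idh1 to Idh2 stood at -0.60 ± 0.24 in antibiotic mice and -0.24 ± 0.12 in water mice (SD, n = 6 in each; exact permutation p = 0.0108, adjusted 0.0792). Ldha to Ldhb under morphine differed by -0.24 between drinks (exact permutation p = 0.0556, adjusted 0.272).

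**Figure D4:**
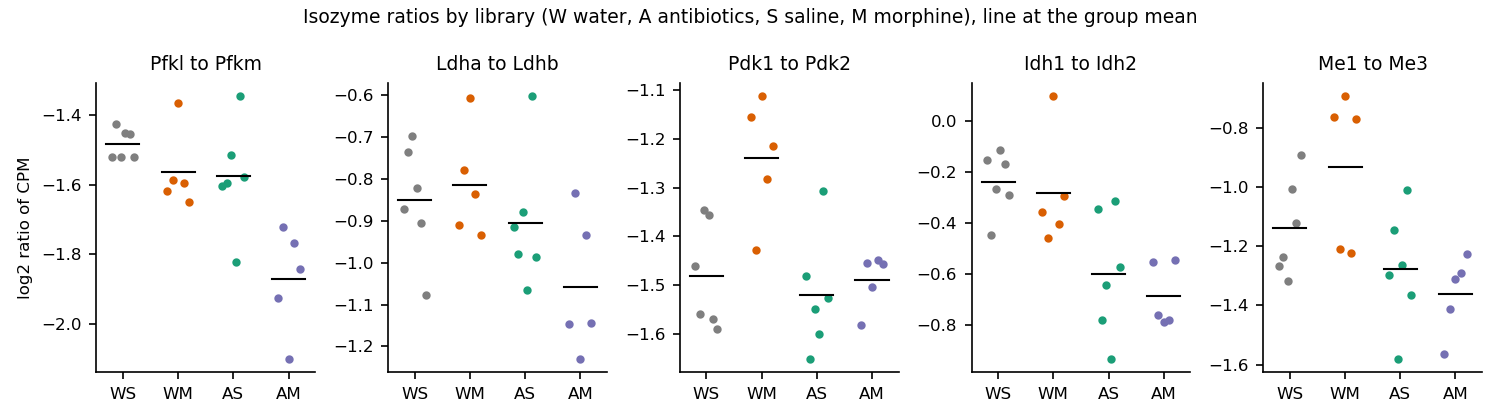
Log2 ratio of the CPM of 2 isozymes in each library for 5 pairs, by group, with a line at the group mean; the vertical axes differ and do not start at 0. The ratio of Pfkl to Pfkm is lowest in antibiotic mice given morphine, at -1.87 on average, and that of Idh1 to Idh2 is lower on average in both antibiotic groups than in both water groups.

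Genes that feed or steer the pathway were called at single points. Their counts stand beside the shares of all genes tested. With morphine, 3.91% were called higher and 2.67% lower in water mice, and 6.43% and 6.62% in antibiotic mice. Antibiotics had 1.41% called in either direction under saline, and 8.42% higher and 9.58% lower under morphine. The lists below were not tested against these shares. Of 11 genes of glucose, lactate and pyruvate transport, 1, 1, 1 and 2 fell and 0, 0, 0 and 1 rose, in the order morphine in water mice, morphine in antibiotic mice, antibiotics under saline and antibiotics under morphine. Bsg, the chaperone of the lactate carriers, fell in each, by 0.22, 0.21, 0.17 and 0.16 on the log2 scale (adjusted p = 0.00775, 0.00527, 0.048 and 0.0231 by edgeR). These comparisons share groups in pairs, so the 4 values are not independent. With the length slope as covariate, no gene of the whole table passed for morphine in water mice, and far fewer passed in antibiotic mice than without it. Both limits hold for this list and for every list below. Under morphine, antibiotic mice also had more Slc2a1, the glucose carrier of the vessel wall and of glia, at 143 ± 12.2 against 115 ± 8.06 CPM (log2 change 0.32, SE 0.07). Their Slc16a7, a lactate carrier of neurons, averaged 3.99 ± 1.2 against 6.35 ± 0.93 CPM (log2 change -0.67, SE 0.20).

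Of 23 regulators of glycolysis and pyruvate dehydrogenase, 3, 5, 1 and 5 rose and 1, 0, 0 and 0 fell in the same order. Pfkfb2, which makes the activator of phosphofructokinase, rose under morphine in both kinds of mice, by a log2 change of 0.19 (SE 0.05) in water mice and 0.23 (SE 0.05) in antibiotic mice. Pdpr, the regulatory subunit of the pyruvate dehydrogenase phosphatase, rose by 0.42 (SE 0.08) and 0.52 (SE 0.08), and Hif1a by 0.18 (SE 0.05) and 0.17 (SE 0.05). Hif3a, a hypoxia-inducible factor subunit with inhibitory forms, averaged 4.01 ± 0.6 CPM in water mice given saline, 5.43 ± 0.94 in water mice given morphine, 9.67 ± 4.3 in antibiotic mice given saline and 22.7 ± 4.88 in antibiotic mice given morphine. Its log2 change was 1.23 (SE 0.21, adjusted p = 0.000872 by edgeR) with morphine in antibiotic mice and 1.26 (SE 0.23, adjusted p = 0.00986 by edgeR) with antibiotics under saline. With antibiotics under morphine it was 2.05 (SE 0.23, adjusted p = 4.65e-06 by edgeR). In that last comparison Pdk4, another kinase that switches off pyruvate dehydrogenase, rose by 0.53 (SE 0.13).

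Among 20 tested genes for other isozymes and missing steps, 1 fell with morphine in antibiotic mice, and 4 fell and 2 rose with antibiotics under morphine, with none in the other comparisons. Hk3, a hexokinase, had log2 changes of -0.92 (SE 0.28) and -1.16 (SE 0.28) there, at 0.967 ± 0.52 CPM in antibiotic mice given morphine. Eno3, the muscle enolase, rose by 0.60 (SE 0.16), and the malic enzyme Me2 fell by 0.21 (SE 0.06). In the pentose phosphate branch (11 genes), 1, 2, 1 and 2 fell and none rose. Taldo1, the transaldolase, fell in each comparison, by 0.16, 0.22, 0.18 and 0.23 on the log2 scale. Rpe, the ribulose-phosphate epimerase, fell by 0.47 with morphine in antibiotic mice and by 0.60 with antibiotics under morphine.

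Of 19 genes of the glycogen branch, 1, 1, 1 and 1 rose and 0, 1, 0 and 5 fell. Phka2, a regulatory subunit of phosphorylase kinase, rose by 0.41 (SE 0.07) and Phkb, another, fell by 0.52 (SE 0.09) with antibiotics under morphine. Ugp2, which makes UDP-glucose for glycogen, fell by 0.28 (SE 0.07). Among 18 tested genes of mitochondrial shuttles and anaplerosis, 0, 1, 0 and 2 rose and 1, 0, 0 and 1 fell. Gpd1, the cytosolic enzyme of the glycerol phosphate shuttle, fell by 0.38 (SE 0.10) with morphine in water mice. With antibiotics under morphine it rose by 0.43 (SE 0.10), and both comparisons share the 5 libraries of water mice given morphine.

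Nuclear genes of the respiratory chain, which takes up the electrons of the cycle, were counted in the same 4 comparisons. Of 37 genes of complex I, 15, 10, 0 and 0 fell and 0, 0, 0 and 3 rose, with median log2 changes of -0.15, -0.089, -0.073 and -0.023. Of 45 genes of complexes II to V, 15, 9, 0 and 5 fell and 0, 0, 0 and 1 rose, with medians of -0.11, -0.10, -0.049 and -0.015. These counts are given side by side and their difference from those of the members was not tested. The limits of the length slope apply here too, to the counts for morphine in water mice and in antibiotic mice.

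Markers of glia were also called in the same comparisons, and their counts were not tested against the shares over all genes. Of 11 microglial markers, 4, 9, 7 and 10 fell and none rose, and their summed level ran from 597 to 643 CPM in water mice given saline, 501 to 570 in water mice given morphine, 448 to 564 in antibiotic mice given saline and 372 to 442 in antibiotic mice given morphine. Of 7 markers of oligodendrocyte precursors, 1, 5, 3 and 6 fell, with summed levels of 607 to 682, 550 to 619, 505 to 598 and 430 to 490 CPM. Of 11 oligodendrocyte markers, 3, 2, 9 and 5 fell and 0, 2, 0 and 0 rose, with sums of 5994 to 6954, 5118 to 5987, 5100 to 5933 and 5118 to 5849 CPM. Of 10 astrocyte markers, 0, 1, 0 and 3 fell, with sums from 3762 to 4480 CPM over the 4 groups. Endothelial markers (10) fell in 3, 2, 0 and 3 cases and rose in 0, 1, 0 and 1, and general neuronal markers (8) fell in 1, 0, 0 and 0 and rose in 0, 0, 0 and 1. Of 13 markers of striatal projection neurons none passed, with sums from 3490 to 8162 CPM. All 13 had a negative log2 change with morphine in water mice (median -0.23) and with antibiotics under saline (median -0.25). Both comparisons have water mice given saline as their reference, so they are not independent. With morphine in antibiotic mice 7 were negative and 6 positive, and with antibiotics under morphine 9 and 4. Of 14 cortical and septal markers 1 fell with morphine in water mice, with sums from 684 to 2308 CPM. The only erythrocyte gene tested, Alas2, fell with morphine in water mice. The erythrocyte sums rest on Alas2 alone and ran from 1.03 to 11.2 CPM over all libraries. The part of these cell types in the changes of the members was not tested.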

How the data were processed

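Deposited raw read counts per gene were analysed. Per the submitters' processing notes, the authors used STAR 2.4.0, FastQC and edgeR. Per the labels' protocols, TRIzol RNA was made into cDNA with SMARTer chemistry and sheared by sonication. The genome build, annotation and strand setting of the counting were not given in the sources used here. Reads of overlapping and antisense genes therefore cannot be told apart. A separately deposited normalised table was not used. The 5 summary entries, which held 20.6% to 26.4% of a library's counts, were removed.

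Analysis used R 4.3.3, edgeR 4.0.16, limma 3.58.1 and DESeq2 1.42.0. Genes kept by filterByExpr received TMM scaling, and a single model of 4 groups was fitted with robust quasi-likelihood dispersion and two-sided tests. The standard error is the size of the log2 change divided by the square root of F. Log2 CPM used a prior count of 2. Transcript lengths (GENCODE M21, by symbol) covered 95.4% of tested genes. The 50 within-group library pairs differed by 3.17 to 23 times counting variance, so none was treated as a duplicate. The pipeline was tested on simulated data. Alternatives were other size factors, filters, tests and thresholds, the compared groups alone, a replicate block, 3 library measures as covariates and leaving out each library. The omission of the 3 libraries with most reads outside genes was chosen after seeing the data. The members and all gene lists were chosen with earlier results of these data known. Values in every library are given for up to 4 passing members per comparison by smallest p, and up to 3 passing genes are named per other list. Promoters came from RefSeq.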

Additional observations from a re-analysis of the deposited data

Results flagged for a closer look

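Among the 14 members past the threshold in a comparison, 56 sets of libraries (gene and group) were searched for 1 library far from the rest by Dixon's test at the 95% level, which chance passes in about 1 in 20 sets. Pdk1 stood at 49 CPM in antibiotic library 5 given saline, where the other 5 libraries lay between 35.2 and 38.8. That library had the highest score of cortical and septal markers (their mean centred log2 CPM) of all libraries, at 1.30. Any part of the score in this value was not tested. Idh1 stood at 33.2 CPM in antibiotic library 3 given saline, where the others lay between 40.4 and 44.6. The score of that library was -0.43. The comparison in which these genes passed was antibiotics against water under morphine. Antibiotic mice given saline enter it only through the filter, the scaling and the shared estimate of the spread.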

How the results depend on the processing

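No change of direction occurred in any alternative among the 18 calls of single members. Over 180 values from the other settings with these libraries or with the compared groups alone, 147 stayed past the threshold and 33 did not. Among the 147 are all 18 values at an adjusted p under 0.1, which pass by construction because the fit is the same. Without the 3 libraries highest in reads outside genes, 10 of the 18 calls stayed past it and 8 did not. Of 188 values with 1 library left out, 127 stayed past it, and 6 of the 18 calls did so throughout. For morphine in water mice the count of 4 became 0 with the length slope as covariate, and ranged from 1 to 4 when leaving out each library. For morphine in antibiotic mice the count of 4 became 10 with DESeq2, 10 at an adjusted p under 0.1, 1 with the compared groups alone, 0 with the length slope as covariate and 2 (1 higher, 1 lower) without the 3 libraries highest in reads outside genes, and ranged from 1 to 7 when leaving out each library. For antibiotics under saline 0 became 1 with DESeq2. For antibiotics under morphine 10 became 6 without those 3 libraries and ranged from 6 to 10 when leaving out each library. The cause was not tested. No share of all genes stands beside the counts of members in this section, so they do not compare members with other genes. With the length slope as covariate, 0 genes of the whole table passed for morphine in water mice and 138 in antibiotic mice. In water mice the slope did not overlap between saline and morphine, so that fit cannot tell the slope from morphine. Titles share numbers between groups. Samples with the same number showed no steady shared deviation (correlations from -0.478 to 0.353, with 6 of 17 pairs over 0.1). The main fit therefore did not treat them as pairs. Correlations this few and mixed cannot exclude that a number stands for a shared origin. With the replicate block, the count went from 4 to 0 for morphine in water mice, from 4 to 3 for morphine in antibiotic mice (without Ldha, adjusted p = 0.0552 by edgeR) and from 10 to 6 for antibiotics under morphine. The difference between the morphine changes needs all 4 groups, so it has no fit with fewer. No isozyme ratio had an adjusted p under 0.05 with a prior count of 0.5, with none, or when leaving out each library. The lowest adjusted p in each of the 4 comparisons, from 0.0762 to 0.0955, would pass at 0.1. Hk2, with 36 to 66 reads per library, is the member whose precision depth limits most.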
